A study of Homo sapiens with 4 samples.

Results

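Gene-desert peaks were the ATAC-seq peaks that lie more than 250 kb from the body of any protein-coding gene. They were found by position on GRCh38, on chromosomes 1 to 22, among peaks shorter than 800 bp, without those that start in the first 250000 bases of chromosome 1. The rule kept 12368 of 190348 peaks, or of the 163667 that met its other criteria. It used no measured level. Their median distance to a protein-coding gene was 465 kb, 1768 were over 1 Mb away, and they fell in 578 deserts, here a desert being the gap between a neighbouring pair of protein-coding genes. A desert is named below by its bordering genes.

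In ATAC-seq a transposase inserts adapters where DNA is free of nucleosomes, so a peak marks accessible chromatin. Cells were LM2, a human breast cancer line derived from MDA-MB-231 with a raised potential to metastasise to the lung, grown in medium with puromycin. One group of 2 libraries carried a non-targeting control guide and the other group of 2 carried a deletion of CECR2 made with guide sg1, each library from 50000 cells. CECR2 is a bromodomain protein of chromatin-remodelling complexes that contain an ISWI ATPase. A single guide stands for the deletion here, the labels do not say whether the cells were a pool or a clone, and nothing says that replicates came from separate cultures. The p-values below rest on the spread between libraries of a group, and that spread may be technical only.

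Gene deserts are long stretches of the genome without protein-coding genes. Many border genes that control development, and they are known to hold distal enhancers that act over long distances, as in the deserts beside SOX9 and MYC. They also hold long non-coding RNA (lncRNA) genes, repeats, and copies of mitochondrial DNA that entered the nuclear genome. Accessible sites far from promoters are often bound by AP-1, a dimer of FOS and JUN proteins, and by TEAD factors, which act with YAP and TAZ.

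The RefSeq promoter windows (GRCh38.p14, 250 bases before to 50 after a start, given 5′ to 3′ on the gene's strand) show what the start sites in deserts look like. In all, 106 windows lay under 101 gene-desert peaks, at the starts of 97 genes, and 97 of these peaks could be tested. The 5 windows below are those with the largest loss, the largest gain and the highest level, and then the next largest loss and the largest gain among windows that hold an AP-1 motif; they were chosen after their values were seen. Capitals mark the AP-1 motif TGANTCA, searched on both strands.
LINC02380: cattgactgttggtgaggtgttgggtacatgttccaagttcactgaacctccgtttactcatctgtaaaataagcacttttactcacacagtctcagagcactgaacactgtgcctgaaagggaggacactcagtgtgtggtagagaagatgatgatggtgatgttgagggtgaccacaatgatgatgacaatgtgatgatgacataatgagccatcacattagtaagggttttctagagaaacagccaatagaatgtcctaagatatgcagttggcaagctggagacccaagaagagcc
LINC01085: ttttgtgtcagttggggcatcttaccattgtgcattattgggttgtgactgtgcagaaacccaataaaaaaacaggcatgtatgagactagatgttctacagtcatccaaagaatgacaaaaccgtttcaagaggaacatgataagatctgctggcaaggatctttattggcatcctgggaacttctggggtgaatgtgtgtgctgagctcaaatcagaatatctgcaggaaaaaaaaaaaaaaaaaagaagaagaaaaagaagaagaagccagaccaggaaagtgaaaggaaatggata
LOC105374243: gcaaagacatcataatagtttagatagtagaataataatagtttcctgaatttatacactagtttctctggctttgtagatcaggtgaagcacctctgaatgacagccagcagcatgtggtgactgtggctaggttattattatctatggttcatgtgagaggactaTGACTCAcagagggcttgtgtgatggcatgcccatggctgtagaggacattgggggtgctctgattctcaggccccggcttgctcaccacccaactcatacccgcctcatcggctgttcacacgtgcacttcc
LOC105377188: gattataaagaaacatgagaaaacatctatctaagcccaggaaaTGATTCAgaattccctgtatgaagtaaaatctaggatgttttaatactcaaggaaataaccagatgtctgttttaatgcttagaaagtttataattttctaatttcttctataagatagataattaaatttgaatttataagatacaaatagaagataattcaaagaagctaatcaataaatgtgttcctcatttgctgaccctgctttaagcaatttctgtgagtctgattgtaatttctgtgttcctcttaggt
LINC01701: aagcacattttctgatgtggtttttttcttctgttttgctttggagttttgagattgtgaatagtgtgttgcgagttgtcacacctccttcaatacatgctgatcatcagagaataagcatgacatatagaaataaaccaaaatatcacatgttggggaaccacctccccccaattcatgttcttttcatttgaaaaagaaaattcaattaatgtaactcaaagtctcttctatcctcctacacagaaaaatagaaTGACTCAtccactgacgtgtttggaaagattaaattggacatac
They lie at chr4:57425622-57425921 on the plus strand, chr4:14111718-14112017 (plus), chr3:182182713-182183012 (minus), chr3:83953963-83954262 (plus) and chr1:189775219-189775518 (plus), in that order. All are starts of lncRNA genes. Of the 106 windows, 23 held the AP-1 motif (21.7%), against 7.71% of all 35116 promoter windows of the same length. The TEAD motif GGAATG, on either strand, was in 17 (16%), against 14% of all windows; its last letters can overlap an AP-1 match. The NF-kB motif was in 4 (3.77%), against 5.91%. A match describes letters and does not show a bound site. The desert windows were taken because a peak lies there, while the full set was taken with or without a peak. The desert windows are starts of lncRNA genes, and the full set also holds starts of protein-coding genes. Some desert windows of the same gene overlap. The shares thus compare unlike sets.

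Facts of the 4 libraries that bear on these peaks were as follows. Depth without the start of chromosome 1 was 21002477 and 15561701 counts for the controls, and 43519018 and 38924086 for sg1. The median gene-desert peak had 20 and 15 counts in the controls and 39 and 35 in sg1, so most of these peaks are read at low depth and the controls limit the precision. Peaks within 1 kb of an end of 10 genes typical of the line, such as VIM, CD44 and FOSL1, were found for all 10, with 591 and 608 CPM (counts scaled to a common library total) in the controls and 600 and 604 in sg1. Of 8 markers of other cell types, 4 had such a peak, with 39.7 to 45.4 CPM in sum in a library. Most of that sum came from CD3E, with 27.1 to 33.3 CPM in a library. SPI1 held 8.4 to 9.9 CPM, PGR 2.1 to 2.9 and PTPRC 0.33 to 1.03, and PECAM1, CDH5, ESR1 and ALB had no such peak. The 5 tested peaks within 1 kb of CECR2 summed to 15.3 and 13.4 CPM in the controls and 15.1 and 17.9 in sg1, which does not check the edit. The CPM of the marker genes uses library totals alone, without the start of chromosome 1. The scaling of single peaks and deserts below uses TMM factors, which even out differences in composition.

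Deserts were sparser in accessible sites than the rest of the genome. There were 24.9 peaks per Mb in deserts, 63.3 in the sequence up to 250 kb from a gene and 69.9 inside protein-coding genes, leaving out deserts over 5 Mb and those open to 1 side. Of the 12368 members, 3855 lay inside a non-coding gene and 900 were more than 250 kb from any gene at all. The members were also low. The median level of those tested was 0.981 CPM, against 1.5 CPM for peaks of the same lengths up to 250 kb from a gene. In every library they held between 2.59% and 2.81% of the counts outside the start of chromosome 1.

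Gene-desert peaks fell more often than they rose in the CECR2 deletion. Of the 11772 that could be tested (596 were too low), 2106 or 17.9% fell and 1125 or 9.56% rose in edgeR's quasi-likelihood test at a false discovery rate (FDR) of 0.05. Over all 184717 tested peaks, 16.8% fell and 11.5% rose, so the share of losses was near that of the whole table and the share of gains was a little below it. Peaks of the same chromosomes and lengths up to 250 kb from a gene gave 15.9% and 9.81%. The median log2 fold change of sg1 against control was -0.04 for gene-desert peaks and 0.02 for all tested peaks. With library size alone as the scaling, the median over gene-desert peaks was 0.01 and that over all peaks 0.06, so its sign depended on the scaling.

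In 2095 of the lower and 1124 of the higher peaks, both libraries of one group lay beyond both of the other. Over all tested peaks, called or not, this separation was seen in 63.7%. Called peaks were picked by a test on these same counts, so their separation follows largely from the call and adds no support. The change exceeded 2-fold in 1408 of the lower and 848 of the higher peaks; over all tested peaks 8.87% fell and 4.96% rose by as much. DESeq2 called fewer, 1065 lower and 327 higher of the 10387 to which it gave an adjusted p, where it called 10.4% and 4.93% of all peaks. Gains thus made up 34.8% of the calls in edgeR and 23.5% in DESeq2. Leaving out sg1 replicate 1 left 1229 lower and 566 higher, and leaving out sg1 replicate 2 left 1174 and 534. Called peaks were longer than the rest, with median lengths of 348 bp (lower) and 314 bp (higher) against 247 bp for tested members that were not called.

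The counts summed over all gene-desert peaks made up 2.80% and 2.81% of the control libraries and 2.60% and 2.59% of the sg1 libraries. Both sg1 values lay below both control values, by 0.214 percentage points between the means (2.81% ± 0.00316 against 2.59% ± 0.00952, SD, n = 2). The two-sided exact permutation test gave p = 0.333, the smallest p that 2 against 2 libraries allow.

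The share of losses differed by a few points between distance classes. The share of tested peaks that fell was 15.4% inside genes, 13.7% up to 10 kb, 16.9% from 10 to 50 kb and 18.7% from 50 to 250 kb. Within the deserts it was 18.6% from 250 to 500 kb, 18.1% from 500 kb to 1 Mb and 14.6% beyond 1 Mb. The last value mixes unlike places: without deserts over 5 Mb or open to 1 side, a choice made after seeing the data, 234 of 1020 peaks beyond 1 Mb fell (22.9%). Gains went from 10.7% at 250 to 500 kb to 6.67% beyond 1 Mb (6.96% without the large deserts). The 3 members nearest to the limit lay 250040, 250077 and 250109 bases from a gene. Of these the peak between ETAA1 and C1D, with 5.98 and 5.28 CPM in the controls and 5.88 and 6.06 in sg1, could be tested and was not called (log2 fold change 0.08 ± 0.17, SE). The 3 peaks just short of it, at 249951, 249995 and 249996 bases, had log2 fold changes of 0.96, 0.32 and 0.49 and were not called either.

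**Figure D1:**
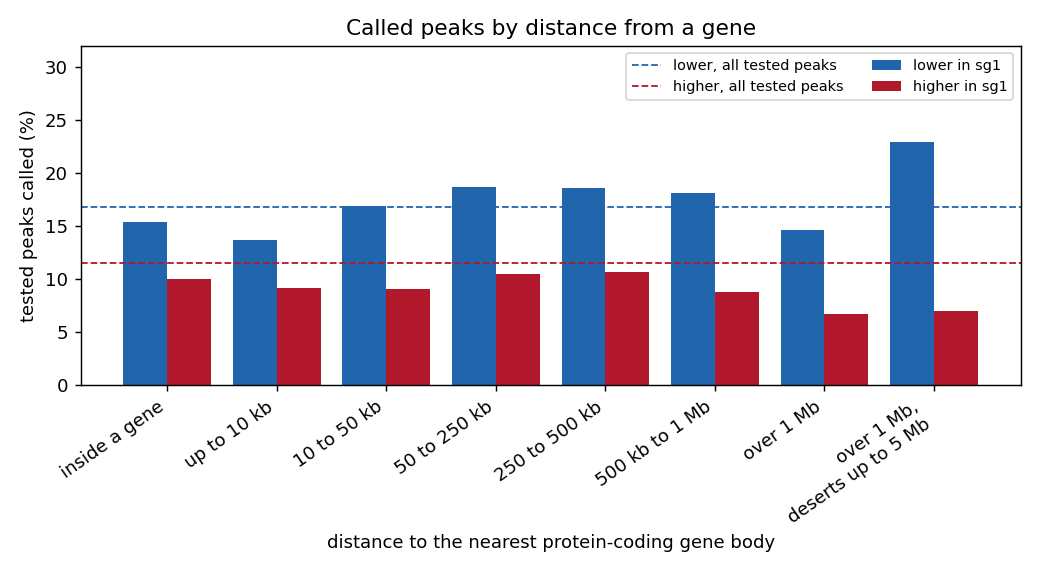
Percent of tested peaks called lower (blue) or higher (red) in sg1 by edgeR, in classes of distance to the nearest protein-coding gene body (x axis). Dashed lines mark all tested peaks, 16.8% lower and 11.5% higher; the last pair of bars drops deserts over 5 Mb or open to 1 side, where the lower share beyond 1 Mb is 22.9% and not 14.6%.

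Tall gene-desert peaks were mostly lower or not called. At 8 CPM and over, 274 of 629 gene-desert peaks fell (43.6%) and 38 rose (6.04%), against 31.6% and 11.9% of the 14830 other peaks of the same chromosomes and lengths. From 2 to 4 CPM the lower share was 24.6% in deserts and 16.6% elsewhere, and from 4 to 8 CPM 27.2% and 21.2%. At under 0.5 CPM 9.41% fell and 12.4% rose in deserts, against 10.1% and 9.82% elsewhere. These shares are descriptions over peaks, which are not replicates, and no test was made of the differences. The median log2 fold change of gene-desert peaks went from 0.36 under 0.5 CPM to -0.24 at 8 CPM and over, and that of the other peaks from 0.32 to -0.10. The share called at low levels is limited by counts. Some peaks under 0.5 CPM passed the count filter only through the group in which they were higher. That shapes the shares and medians of this class, so nothing is drawn from them.

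**Figure D2:**
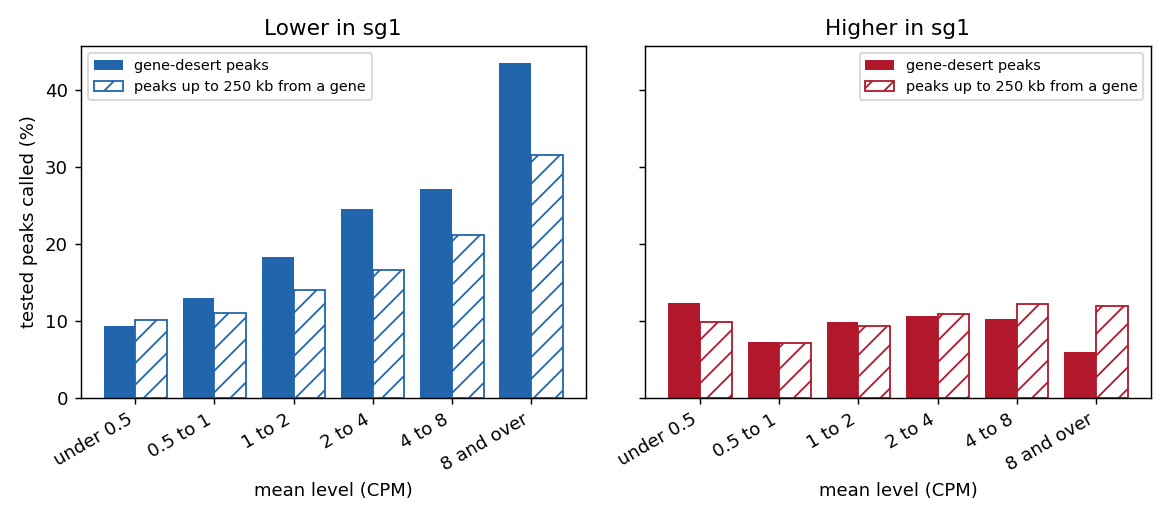
Percent of tested peaks called lower (left) or higher (right) in sg1 by class of mean level in CPM, for gene-desert peaks (filled bars) and peaks of the same chromosomes and lengths up to 250 kb from a gene (hatched). In the tallest class 43.6% of gene-desert peaks are lower against 31.6% of the others, and 6.04% are higher against 11.9%.

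The strongest losses were sites open in both control libraries and almost closed in sg1. The peak at chr12:90281245-90281637, 572 kb from ATP2B1 (a plasma membrane calcium pump) and outside any gene, had 50 and 53 counts in the controls and 1 and 1 in sg1. In CPM that was 2.43 and 3.46 against 0.0226 and 0.0254. Pooled over libraries, the control level was 120 times that of sg1 (95% interval 32.4 to 1004, counting error only). The fitted log2 fold change was -6.70 ± 0.56 (SE, adjusted p = 3.55e-11 by edgeR's quasi-likelihood test with Benjamini-Hochberg adjustment).

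A loss at chr13:89755690-89756203, between SLITRK5, a transmembrane protein of neurons, and GPC5, a cell-surface proteoglycan, went from 91 and 52 counts to 4 and 8. At chr15:95636243-95636460, 690 kb from NR2F2, the gene of the nuclear receptor COUP-TFII, the counts were 69 and 60 in the controls and 3 and 9 in sg1. The peak at chr3:157844492-157844759, 251 kb from the homeobox gene SHOX2, had 42 and 20 counts and then 2 and 3. Its log2 fold change was -4.73 ± 0.57. The other 4 of the 8 largest losses were at chr13:81520335-81520818 (SPRY2–SLITRK1), chr5:165320050-165320325 (MAT2B–TENM2), chr3:191789936-191790257 (PYDC2–FGF12) and chr13:104098463-104098767 (SLC10A2–DAOA). Their log2 fold changes were -4.27, -4.22, -4.19 and -4.12. DESeq2 also called all 8. Of the 8, 3 are on chromosome 13, and the one between PYDC2 and FGF12 is the only one inside a non-coding gene, the lncRNA gene LOC105374276.

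The largest gain was in the desert before SOX9, a transcription factor of cartilage and stem cells whose expression is set by distant enhancers. The peak at chr17:71163524-71163889 lies inside the lncRNA gene CASC17, 957 kb from SOX9. It had 0 counts in both control libraries and 82 and 116 in sg1 (1.85 and 2.94 CPM). Against a floor of 3 counts over the control group, sg1 was at least 28.3-fold higher (adjusted p = 5.65e-09 by edgeR). A second gain in the same desert, at chr17:71821465-71821895 and 299 kb from SOX9, had 0 and 3 counts in the controls and 68 and 47 in sg1. The ratio was 16.4 (95% interval 5.49 to 80.9). The desert as a whole did not rise with them: of its 58 tested peaks 9 fell and 9 rose, and its summed counts went from 182 and 188 CPM to 165 and 165 (log2 fold change -0.16 ± 0.03).

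The gain at chr4:33302379-33302713, 2156 kb from PCDH7, a protocadherin, went from 2 and 0 counts to 55 and 44, a ratio of 21.2 (5.73 to 178). The next called loss lay 13.4 kb away, at chr4:33316130-33316385, with 13 and 24 counts in the controls and 3 and 7 in sg1. A closer pair was seen between MMADHC and RND3. The gain at chr2:149860522-149860947 went from 1 and 2 counts to 76 and 49, while 1.1 kb away the peak at the start of the lncRNA gene LINC01931 (chr2:149859173-149859421) fell from 1.88 ± 0.44 to 0.774 ± 0.232 CPM (SD, n = 2). These 2 neighbouring losses were picked after their values were seen, and DESeq2 did not call the one at LINC01931 (adjusted p = 0.0586).

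The remaining gains of the 8 were at chr13:47564134-47564410 (HTR2A–SUCLA2), chr3:99294011-99294454 (DCBLD2–COL8A1), chr7:10176114-10176552 (NXPH1–COXFA4) and chr4:126071687-126072058 (FAT4–INTU). In CPM, their sg1 libraries held 1.11 and 0.913, 1.97 and 1.83, 1.18 and 1.27, and 1.83 and 2.03, and no control library held more than 0.340. DESeq2 called all but the last, for which its adjusted p was 0.109 where edgeR gave 6.68e-06. The largest gains thus came from sites with 0 to 7 counts in the controls over the pair, so their sizes are known only within wide intervals.

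**Figure D3:**
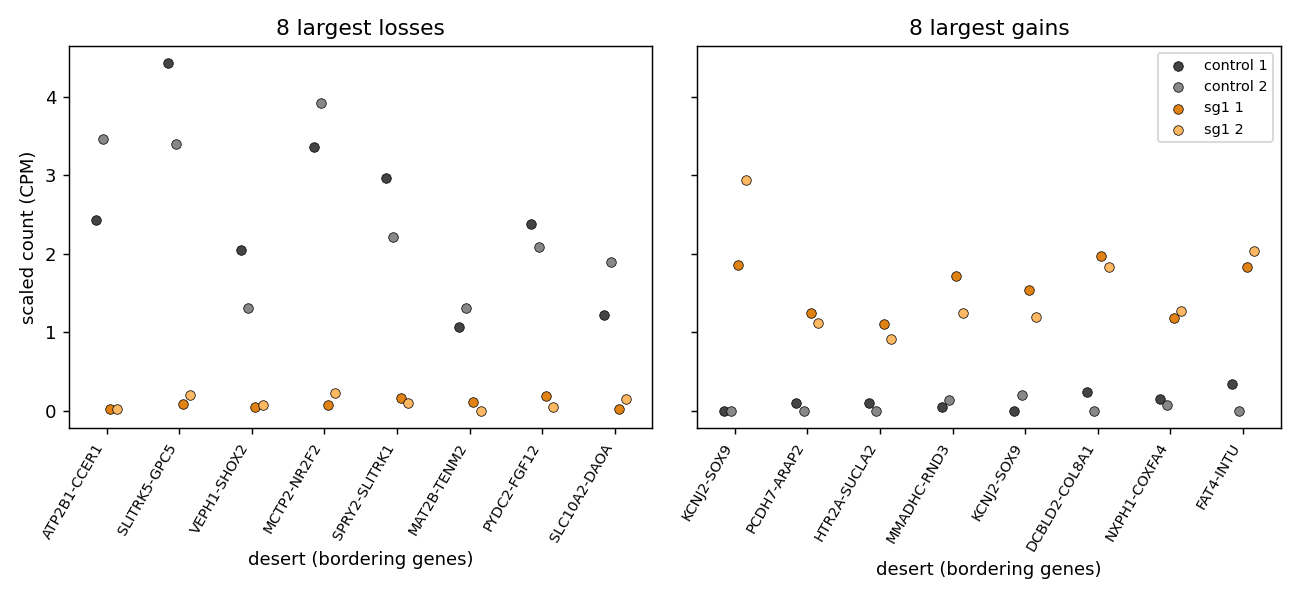
Level in CPM (y axis, linear) of the 8 largest losses (left) and 8 largest gains (right) in each of the 4 libraries, the desert of each peak on the x axis. Grey points are control and orange points sg1 libraries. The peaks were chosen to have groups that do not overlap, and the first gain is at 0 in both controls.

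At all start sites in deserts, 13 of the 97 tested peaks fell (13.4%) and 8 rose (8.25%), with a median log2 fold change of -0.01. Over all tested peaks the shares were 16.8% and 11.5%, and over gene-desert peaks 17.9% and 9.56%. LINC02380, between IGFBP7 (a secreted binder of insulin-like growth factors) and LOC124900173, fell from 4.59 ± 0.24 to 0.609 ± 0.0011 CPM (SD, n = 2), a log2 fold change of -2.90. Its window held none of the 3 motifs. LOC105374243, in the desert after SOX2, a pluripotency factor, was the tallest at 20.5 ± 0.654 CPM and fell to 10.7 ± 0.242. LOC105377188, between GBE1 and CADM2, went from 1.83 ± 1.12 to 0.967 ± 0.327 CPM, and DESeq2 gave it an adjusted p of 0.253. The largest rise was at LINC01085, between BOD1L1 and CPEB2, from 8 and 4 counts to 49 and 57. LINC01701, between PLA2G4A and BRINP3, rose from 2.13 ± 0.15 to 3.79 ± 0.30 CPM in edgeR, and DESeq2 did not call it (adjusted p = 0.0687). The AP-1 motif was in 5 of the 13 windows under lower peaks and in 2 of the 8 under higher peaks, numbers too small to compare.

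Summed over each desert, losses were more frequent than gains. Counts were added over the gene-desert peaks of a desert, and the 492 deserts with 3 or more such peaks were tested. Of these, 254 (51.6%) fell, 75 (15.2%) rose and 163 were not called, and the median log2 fold change was -0.17. The shares were near these with the limit at 100 kb, which adds peaks nearer to genes: 48.4% fell and 14.5% rose. Sums over peaks nearer than that were not tested, so the shares are not shown to be particular to deserts. A sum also gives most weight to tall peaks. Most changes were modest: 16 of the lower and 3 of the higher deserts passed 2-fold. Without sg1 replicate 2 the higher deserts numbered 46 and the lower 214. Single deserts mixed directions. Of the 492, 260 held at least 1 lower and 1 higher peak, 143 of the 254 lower deserts held a higher peak, and 38 of the 75 higher deserts held a lower one. The tallest peak supplied the larger part of the level in 29 of the lower and 7 of the higher deserts.

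Called peaks next to each other in a desert mostly moved the same way when they were close. Of 552 neighbouring pairs of called peaks less than 5 kb apart, 92% had the same direction. The share was 71.3% at 5 to 20 kb, 65.2% at 20 to 100 kb and 64.7% beyond 100 kb, where 269 of 762 pairs were opposite. Peaks that close can be parts of a single open site.

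The desert between ATP2B1 and CCER1 on chromosome 12, which holds the largest loss, had the smallest p of the deserts that fell. It fell from 142 and 143 CPM to 75.6 and 76.0 (log2 fold change -0.91 ± 0.04), with 17 lower and 3 higher of 36 tested peaks. Lower peaks were spread over much of the desert, and some of the larger losses lay in groups. Peaks at 251, 252 and 271 kb from ATP2B1 had log2 fold changes of -4.02, -2.69 and -2.45, and those at 571, 572 and 572 kb had -2.78, -3.97 and -6.70. The first of these, at chr12:89959969-89960539, went from 19.5 ± 1.26 to 1.18 ± 0.31 CPM. Its tallest control peak, at chr12:90253574-90254227 between these groups, fell less, from 36.8 ± 1.52 to 30.1 ± 0.84 CPM. The 3 higher peaks lay together near 834 kb. These peaks along the desert were picked after their values were seen.

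Between MAP3K7, a kinase of TGF-beta and NF-kB signalling, and LOC124901495 on chromosome 6, 18 of 31 tested peaks fell and 0 rose in edgeR. In the upward direction 0 passed an unadjusted p of 0.05 and 0 were called by DESeq2. The desert went from 49.9 ± 0.13 to 21.1 ± 0.50 CPM (SD, n = 2), a log2 fold change of -1.24 ± 0.08. Its lower peaks lay from 389 to 1118 kb from MAP3K7, with changes between -3.42 and -1.02. Between CD83 and JARID2, a partner of the Polycomb complex PRC2, the level fell from 322 and 325 to 211 and 211 CPM, with 22 lower and 7 higher of 55 peaks. Between the protocadherin gene PCDH9 and KLHL1 it fell from 94.2 and 94.4 to 55.7 and 55.1 CPM, with 14 lower and 1 higher of 35. Between LRATD2 and POU5F1B on chromosome 8, 6 of 23 peaks fell, and the level went from 86.7 and 83.2 to 44.4 and 42.3 CPM. In each of these deserts both sg1 libraries were below both controls.

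Of the 5 deserts with the smallest p among those that rose, 4 owed it to 1 or a few peaks. Between KCNJ18 and WSB1 on chromosome 17 the level rose from 568 and 571 to 885 and 872 CPM, but 95.8% of it came from 1 peak, the tallest of all gene-desert peaks. That peak, at chr17:22521257-22521617, held 540 CPM in both controls and 853 and 839 in sg1 (log2 fold change 0.65 ± 0.03). It lies within 1 kb of MTCYBP13, a pseudogene of mitochondrial cytochrome b. Between CHD1 and FAM174A the level went from 76.8 and 80.8 to 140 and 138 CPM, and between CA10 and KIF2B from 93.5 and 93.9 to 143 and 141. Between LOC101927345 and TPTE on chromosome 21 the level went from 11.6 ± 0.86 to 31.1 ± 1.25 CPM, of which 84.6% came from the peak at chr21:10014788-10015082 (145 and 134 counts, then 1250 and 1078). The fifth was the desert between LINC02798 and H3-7, described below.

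Peaks next to pseudogenes of mitochondrial genes were among the gains. There were 487 such pseudogenes on the chromosomes in the gene table, and 13 tested gene-desert peaks in 6 deserts lay within 1 kb of one. In edgeR 7 of the 13 rose and 0 fell, with 0 below an unadjusted p of 0.05 on the lower side and 0 lower in DESeq2, and the median log2 fold change was 1.10. At MTCO1P40 (chr17:53105783-53106454, between CA10 and KIF2B) the level went from 31.4 and 28.8 to 75.0 and 73.0 CPM. At the strip of MTND5P10, MTND4P35 and MTND4LP5 between CHD1 and FAM174A (chr5:100049323-100049533) it went from 23.9 ± 0.73 to 61.9 ± 1.99. Peaks near such pseudogenes outside the gene deserts gave like values: of 61, 42 rose and 3 fell, with a median of 1.09. The 11 peaks at the start of chromosome 1, which span the length range of the mitochondrial genome, moved with them, from 17.8% and 17.7% of all counts to 25.3% and 25.2%. Their part in the result was not tested. This set was chosen after its values were seen.

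Without these 13 peaks, as an added alternative, the desert between KCNJ18 and WSB1 was no longer called (log2 fold change 0.12 ± 0.08, adjusted p = 0.189 in edgeR). The one between CA10 and KIF2B was not called either (0.10, adjusted p = 0.0777 in edgeR), and the one between CHD1 and FAM174A turned from 0.82 to -0.25 (adjusted p = 0.00448 in edgeR). The totals barely moved, to 257 lower and 72 higher deserts and to 1118 higher peaks. The other tall peaks did not share one direction. The peak at chr3:93470287-93470857 had 110 and 117 CPM in the controls and 122 and 117 in sg1 and was not called. Those at chr9:63337872-63338596, inside the transcribed pseudogene LOC100996643, and chr5:74315972-74316764 fell: the first from 72.9 ± 1.23 to 53.6 ± 1.18 CPM, the other by 0.26 on the log2 scale to 41.3 ± 1.06 CPM.

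The desert with the most peaks was the one between LINC02798 and H3-7 on chromosome 1, which spans the centromere of that chromosome. Its 654 peaks fell into 2 blocks, 605 from chr1:121743280 to 125182747 and 49 from 143184807 to 143440468. GRCh38 fills centromeres with modelled repeat sequence, where short reads cannot be placed with certainty. In the first block 34 of 544 tested peaks rose, with a median log2 fold change of 0.45. In the second 1 rose and 1 fell of 49, with a median of 0.11. Over both blocks 5.9% of the tested peaks rose, against 11.5% of all tested peaks, and 0.169% fell, against 16.8%. These peaks were low, with a median level of 0.531 CPM against 1.79 CPM for all tested peaks. Low counts limit what can be called, and the count filter shapes the shares and medians at such levels. Nothing is therefore drawn from this comparison. Summed, this desert went from 410 and 419 to 540 and 534 CPM (log2 fold change 0.37 ± 0.02). All 13 deserts over 5 Mb or open to 1 side held 882 members. Of the 809 tested, with a median level of 0.589 CPM, 33 fell (4.08%) and 46 rose (5.69%). In the remaining deserts 2073 of 10963 fell (18.9%) and 1079 rose (9.84%), with a median log2 fold change of -0.08. Their median level was higher, at 1.03 CPM.

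Of the members, 824 tested ones lay more than 250 kb from any gene of any kind. There 49 were lower (5.95%) and 51 higher (6.19%), both shares below the 16.8% and 11.5% of all tested peaks. Their median log2 fold change was 0.35. Their median level was low, 0.578 CPM against 1.79 CPM for all tested peaks. Low counts limit what can be called, and the count filter shapes the median at low levels. Nothing is therefore drawn from these shares and this median. Of these 824, 540 lay between LINC02798 and H3-7. The farthest members from a protein-coding gene lay on chromosome 22 before OR11H1, at 4507 to 4855 kb. Of the 5, the peaks at chr22:10682967-10683586 and chr22:11020619-11020952 fell, from 5.18 ± 0.79 to 3.20 ± 0.08 and from 3.88 ± 0.22 to 2.05 ± 0.04 CPM. DESeq2 did not call the first of these, with an adjusted p of 0.0698. The others, at chr22:10673167-10673347, chr22:10683636-10683892 and chr22:10687382-10687654, were not called, with log2 fold changes of 0.61, -0.05 and 0.15. Members inside a non-coding gene (657 lower and 353 higher of 3688) and outside any gene (1449 and 772 of 8084) gave about the same shares, 17.8% and 17.9% lower.

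The large deserts with many peaks showed both patterns. Between ZEB2, a repressor of epithelial genes, and ACVR2A, an activin receptor, 27 of 118 peaks fell and 4 rose, and the level went from 237 and 242 to 190 and 188 CPM. Between the oncogene MYC and GSDMC 28 of 109 fell and 13 rose (515 and 497 CPM, then 418 and 420). Between AGA and TENM3, a teneurin adhesion protein, 19 fell and 3 rose of 98, and between CITED2, a transcriptional co-regulator, and LOC124901415 22 fell and 6 rose of 94. Between PCDH7 and ARAP2 on chromosome 4 the directions were mixed, with 20 lower and 23 higher of 109 peaks. There the summed level fell by 0.12 on the log2 scale while the median peak was at 0.29, so the sum and the median differ in sign.

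Some deserts rose over many peaks. Between NXPH1, a neurexin ligand, and COXFA4 on chromosome 7, 22 of 44 tested peaks rose and 0 fell in edgeR (1 at an unadjusted p under 0.05 and 0 in DESeq2). The level went from 42.7 and 41.4 to 66.8 and 71.0 CPM (log2 fold change 0.71 ± 0.06). Between SULF2, a heparan sulfate sulfatase, and PREX1, an activator of Rac, on chromosome 20, 14 of 32 rose and 0 fell in edgeR (0 at an unadjusted p under 0.05 and 0 in DESeq2), from 61.6 and 62.5 to 94.7 and 94.4 CPM. No single peak gave more than 17.9% of the level in either. Both were chosen after their values were seen.

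**Figure D4:**
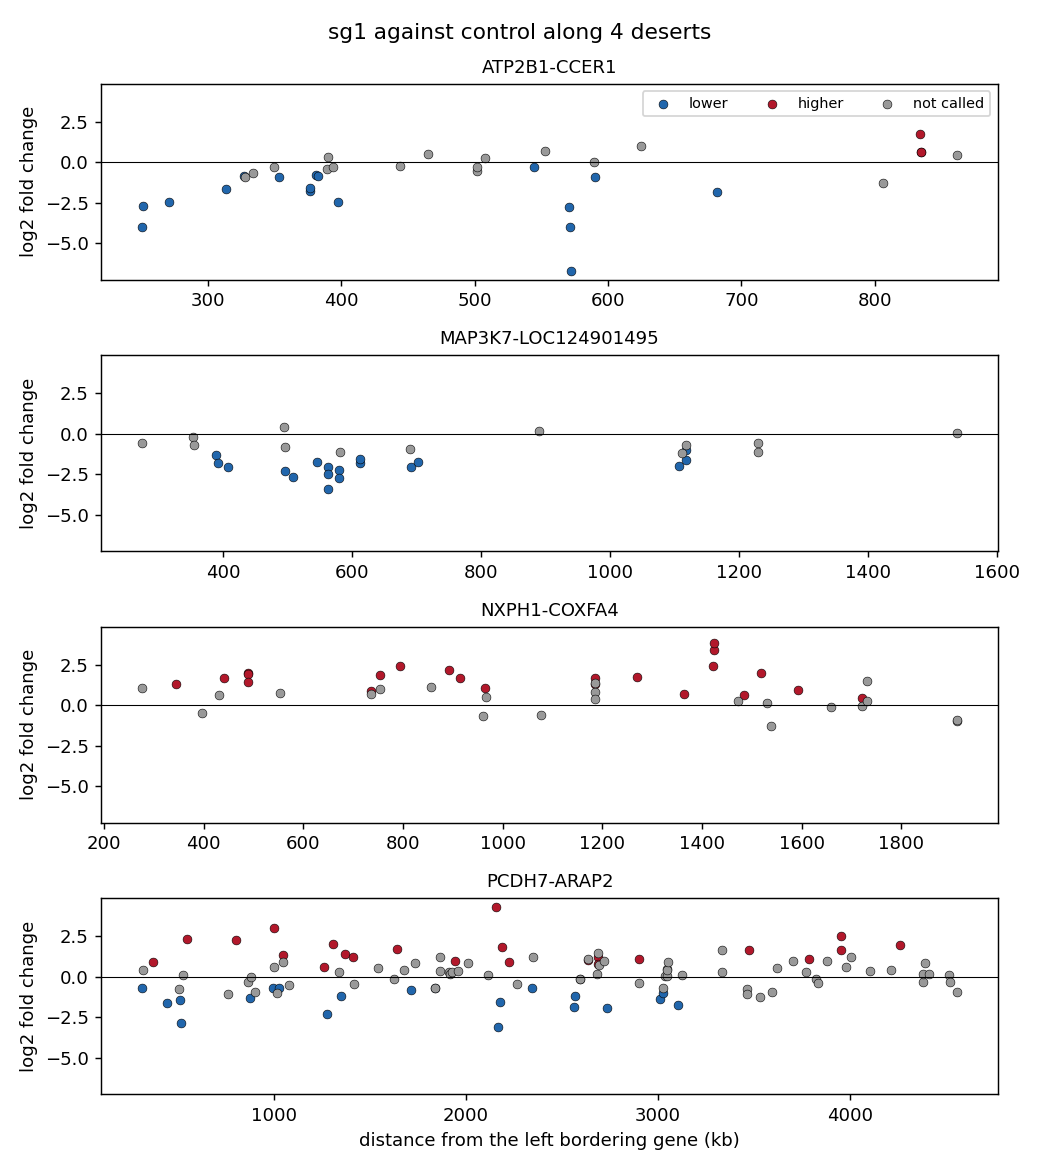
Log2 fold change of sg1 against control (y axis) of each tested gene-desert peak along 4 deserts, by distance in kb from the left bordering gene (x axis). Blue peaks are lower, red higher and grey not called. The called peaks are mostly lower in ATP2B1–CCER1, all lower in MAP3K7–LOC124901495 and all higher in NXPH1–COXFA4. PCDH7–ARAP2 mixes 20 lower and 23 higher peaks.

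Gene-desert peaks of single chromosomes had unlike medians. On chromosome 7, 90 of 414 gene-desert peaks rose (21.7%) and 38 fell (9.18%), with a median log2 fold change of 0.38. Of the other peaks of chromosome 7, 17.6% rose and 12.1% fell, with a median of 0.20. On chromosome 2, 220 of 1034 fell (21.3%) and 58 rose (5.61%), with a median of -0.16. These values were near those of its other peaks, of which 20.6% fell and 6.04% rose, with a median of -0.14. Chromosome 15 had a median of 0.19 in deserts and -0.01 elsewhere, and chromosome 11 had -0.23 and -0.05. Over 22 chromosomes the medians of both sets correlated at r = 0.62 (0.78 for deserts up to 5 Mb), a description of points that share their libraries. The median of chromosome 19 in deserts up to 5 Mb, 0.46, rests on 4 tested peaks. Over all 17 tested gene-desert peaks of that chromosome it was -0.24. In deserts up to 5 Mb the median was below that of the other peaks on 17 of the 22. By desert, 10 of 25 on chromosome 7 rose and 4 fell, and 33 of 55 on chromosome 2 fell and 3 rose, beside 51.6% lower and 15.2% higher over all tested deserts. Without chromosomes 2 and 7 the lower and higher shares were 17.9% and 9.46%.

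**Figure D5:**
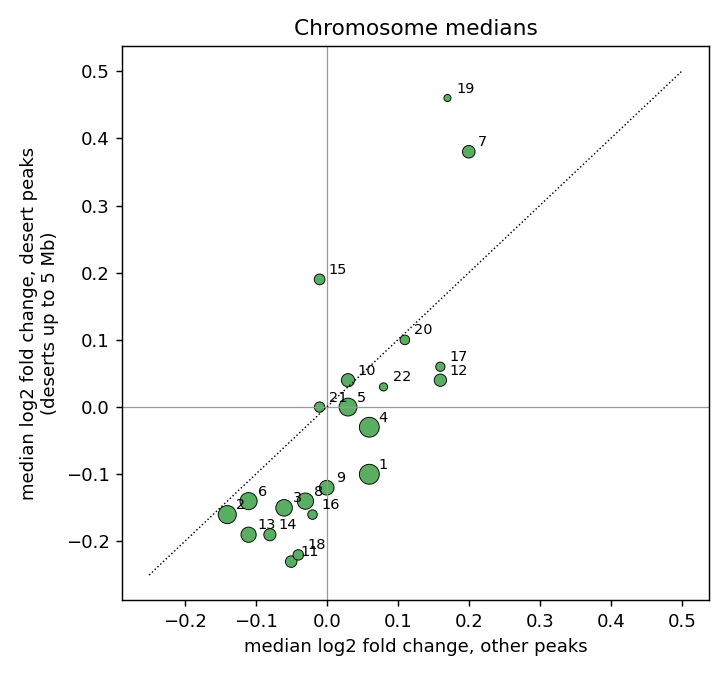
Median log2 fold change of gene-desert peaks in deserts up to 5 Mb (y axis) against that of the other peaks of the same lengths (x axis) for each of 22 chromosomes. Point area grows with the number of gene-desert peaks tested in deserts of any size, and the dotted line marks equal medians. The highest point, chromosome 19, rests on 4 peaks in deserts up to 5 Mb. Chromosome 7 is high on both axes, and 17 of the 22 points lie below the line.

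Lists of bordering genes were read against all gene-desert peaks (17.9% lower and 9.56% higher) and all tested deserts (51.6% lower and 15.2% higher). Transcription factors of development bordered 63 deserts through 55 of 87 genes. There 279 of 1493 tested peaks fell (18.7%) and 142 rose (9.51%), and 32 of 60 tested deserts fell (53.3%) and 4 rose (6.67%). At NR2F2 the deserts on either side did not move alike: the one towards MCTP2 was not called (9 lower and 17 higher of 70 peaks, 176 and 173 CPM against 171 and 168), and the one towards ARRDC4 rose by 0.14 in log2 (adjusted p = 0.0346 in edgeR). Adhesion and synapse genes bordered 72 deserts, with 368 of 1921 peaks lower (19.2%) and 186 higher (9.68%), and 42 of 63 tested deserts lower (66.7%) and 6 higher (9.52%). Beside SLITRK1, a neuronal transmembrane protein, the desert towards SLITRK6 fell from 88.9 and 98.2 to 71.8 and 73.0 CPM and the one towards SPRY2 was not called.

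Secreted growth factors and guidance factors bordered 19 deserts, with 32 of 214 peaks lower (15%) and 24 higher (11.2%), and 6 lower (37.5%) and 4 higher (25%) of 16 tested deserts. No test was made between a list and the other deserts. Between KITLG, the ligand of the KIT receptor, and DUSP6 the level fell from 81.6 and 77.0 to 61.3 and 60.6 CPM. Between CFAP418 and GDF6, a bone morphogenetic protein, it fell from 75.7 and 72.5 to 66.9 and 63.9. Between SEMA3D, a secreted semaphorin, and GRM3 on chromosome 7 it rose from 22.8 ± 1.12 to 28.9 ± 0.29. Of 38 NF-kB target genes, 0 bordered a desert with a member, so gene-desert peaks could not be read against that list.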

How the data were processed

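ATAC-seq peaks were counted in 4 libraries of LM2 cells, 2 with a control guide and 2 with the sg1 deletion of CECR2. The deposited values are raw counts per peak, which the authors made with featureCounts 1.6.0 (single-end mode) from files of cut sites, per the file headers. Trimmomatic 0.39, Bowtie2 and MACS2 2.2.4 appear in the submitters' processing notes; the sources used here give neither settings nor the genome build. The build was checked: 64.8% of 22199 RefSeq GRCh38.p14 promoter windows held a peak, against 6.28% and 6.55% after a shift of 100 kb either way. Peak lengths are as deposited.

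Counts without the start of chromosome 1 were tested on the whole table in edgeR 4.0.16 (R 4.3.3; filterByExpr, TMM, quasi-likelihood F test on group, Benjamini-Hochberg), and summed per desert for the desert test with the same scaling. The fit was tested on simulated data. Intervals are 95% and cover counting error only. A fold against 0 uses a floor of 3 counts over the group. DESeq2 1.42.0, other scalings, filters, distances and leaving out each library were alternatives. Tables used Python 3.11.15 with pandas 2.3.3.

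The members, lists and rules were chosen with earlier results of these data known. Named peaks were, per direction, the 8 largest changes past the FDR with groups apart and a mean scaled count of 30 or more, the 5 tallest, the 5 farthest and those beside the limit. Named deserts were the 6 with most peaks, per direction 5 with the smallest p and 5 or more peaks, and per list those of the 3 genes with most peaks. Others are named as chosen after their values were seen.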

Additional observations from a re-analysis of the deposited data

Results flagged for a closer look

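The peaks at the start of chromosome 1 were outside the tests, and their share of the counts was higher in sg1 than in the controls. It was 25.4% in sg1 replicate 1 and 25.4% in sg1 replicate 2, against 18.0% and 17.9% in the controls. The gene-desert peaks near pseudogenes of mitochondrial genes moved in the same direction, and what part this share has in them was not tested.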

How the results depend on the processing

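More gene-desert peaks were lower than higher under every alternative run but the limit to peaks over 250 kb from any gene. That limit gave 49 lower (5.95%) and 51 higher (6.19%), with a median log2 fold change of 0.35. The peaks it kept were low, with a median level of 0.578 CPM, where the count filter shapes the shares and the median. DESeq2 gave 1065 lower and 327 higher (median -0.087). At over 100 kb there were 4376 lower and 2463 higher (-0.034), with 558 deserts lower and 167 higher, and at over 500 kb 902 and 431 (-0.025), with 119 and 29 deserts; these use other numbers of peaks. Over 250 kb from any gene, 12 deserts were lower and 5 higher. Leaving out 1 library gave 1174 to 1980 lower peaks, 534 to 1074 higher peaks, medians from -0.094 to -0.032, 210 to 239 lower deserts and 46 (without sg1 replicate 2) to 57 higher deserts; the lone library left in a group is then assumed to vary like the others. The median was 0.009 with library size alone, -0.034 with DESeq2 size factors, -0.035 without a filter, -0.068 at a mean of 20 counts or more, -0.047 with the start of chromosome 1 kept, -0.048 without the limit on length and -0.077 without deserts over 5 Mb, the last chosen after seeing the data. Its spread over pairs of libraries was 0.002 (SD), but the pairs share libraries and the spread was taken on CPM ratios, not on fitted changes. That SD therefore does not measure the error of the median, and the cause of these moves was not tested. The difference in the share of counts lay between -0.431 and -0.076 percentage points in all 10 alternatives.

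Deviations of libraries with the same replicate number correlated at -0.00934 over gene-desert peaks. Counting error at these depths can hide a shared effect, so this does not show whether the numbers pair the libraries. With the number as a replicate block, 2050 peaks were lower and 1110 higher, and 247 deserts lower and 68 higher. A median of 15 to 39 counts per peak limits what can be called among the low members.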
